A study of Rattus norvegicus with 6 samples.

Results

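Potassium channel genes were taken as the rows of the deposited tables whose gene name was Kcn followed by a letter and a number, leaving out names ending in ot1 or containing -as. The rule found 76 genes among 30498. Brains of newborn rats (Rattus norvegicus) whose dams had undergone caloric restriction (CR), a treatment used to model restricted fetal growth, were set against brains of pups from control dams, with 3 libraries of polyadenylated RNA in each group. The pups of both groups came by Caesarean section, with brains dissected directly after birth. The labels give no strain, sex or degree of restriction, and leave unsaid whether libraries stand for different pups or litters; p-values therefore reflect only the variation among these libraries, which may be technical. Values are FPKM (fragments scaled by exon length and by the reads assigned in each library), which allow levels to be compared between genes.

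Potassium channels let potassium ions leave or enter cells along their gradient and so set the resting potential and the shape and rate of action potentials. Voltage-gated (Kv) channels open on depolarization, inward rectifiers hold the membrane near rest, tandem-pore (K2P) channels carry leak current, and calcium- or sodium-activated channels open after activity. In the brain the members are divided between neurons of different regions, glia, vessel cells and choroid plexus, and several Kv genes encode silent subunits that form channels only together with subunits of other Kv genes.

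The libraries held 22161522, 25734737 and 25690833 assigned reads in CR replicates 1 to 3 and 14030961, 25345354 and 18429571 in control replicates 1 to 3. The labels describe whole brain, but the groups differed in markers of brain regions. Markers of dorsal telencephalon (cortex and hippocampus) summed to between 175 and 273 FPKM in CR and between 467 and 585 FPKM in control, with 9 of 10 lower in every CR library than in any control library, and 10 of 13 ventral telencephalic markers did the same (107 to 118 FPKM in CR, 152 to 192 in control). Markers of thalamus (6 of 6 higher, 120 to 172 FPKM in CR and 15.6 to 37.4 in control), hypothalamus (12 of 13, 49.6 to 71.8 and 8.52 to 11.2 FPKM), midbrain (11 of 11, 35.1 to 49.5 and 2.73 to 5.12 FPKM), hindbrain (11 of 11, 13.9 to 56.4 and 0.349 to 0.548 FPKM) and cerebellum (6 of 8, 83.2 to 101 and 32.7 to 49.7 FPKM) were above control in CR. The midbrain markers Pax7 and Pou4f2 and the hindbrain markers Hoxa2, Hoxb3 and Hoxb5 had no read in any control library. Astrocyte markers summed to between 364 and 410 FPKM in CR and between 210 and 254 in control, with 10 of 12 higher in every CR library. Markers of microglia (7 of 8, 56.1 to 64.8 FPKM in CR and 31.6 to 44.8 in control) and of the oligodendrocyte lineage (7 of 11, 93.7 to 109 and 69.4 to 80.5 FPKM) were also above control. Of 10 neuron markers 7 were above control and 2 below. They summed to 3202 to 3215 FPKM in CR and 2911 to 3232 in control. Of 7 meningeal markers 2 were above control, and all 4 endothelial markers found overlapped between groups. Beside these counts, 26.1% of all genes averaging 0.5 FPKM or more lay above control in every CR library, and 24.3% lay below it. The part of these differences in the results below was not tested, and in whole tissue fewer cells of a type and less RNA per cell cannot be told apart.

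Of the 76 genes, 57 averaged 0.5 FPKM or more across both groups and were tested with limma on log2(FPKM + 1) in a fit across all 15247 genes at that level. In CR, 13 of the 57 were higher and 10 were lower at a Benjamini-Hochberg adjusted p of 0.05, and 34 did not pass. Over all tested genes 17.7% were called higher and 16.2% lower, 33.9% in all, against 40.4% of the channel genes. The median log2 fold change was 0.16 for the channel genes and 0.01 for all tested genes, and the median absolute value 0.32 and 0.20. CR and control libraries were fully separated in 36 of the 57 channel genes, against 50.3% of all tested genes. CR lay above control in 21 of the 57 channel genes, against 26.1% of all tested genes, and below it in 15, against 24.3%. Of the channel genes 22.8% were called higher, against 17.7% of all tested genes. The 17.5% called lower was near the 16.2% of all tested genes. The separated share and the median absolute change were larger than over all tested genes, and none of these differences was tested. The genes that passed differed in direction between subfamilies.

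**Figure D1:**
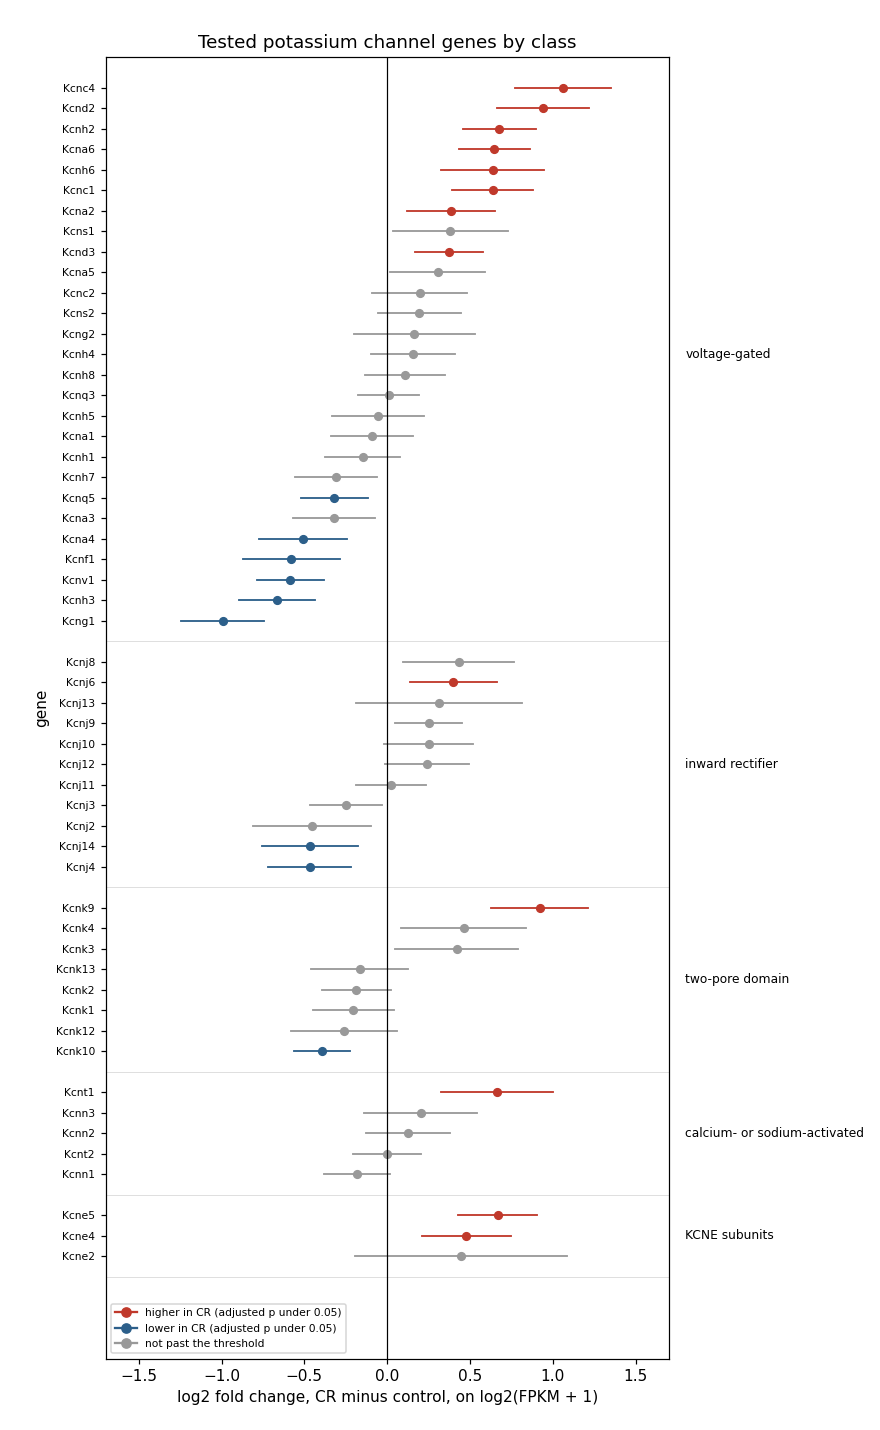
Log2 fold change of 54 of the 57 tested potassium channel genes, CR minus control on log2(FPKM + 1), with 95% confidence intervals from limma, grouped by class. Kcnc4 (1.06) and Kcng1 (-0.99) lie farthest out on either side, both among the voltage-gated genes, and the 32 genes in grey did not pass the threshold.

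The sequence around the start of transcription is shown for 4 voltage-gated genes that passed, to set the 2 largest increases beside the 2 largest decreases among called genes with a single entry. RefSeq windows on GRCr8, from 250 bases before to 50 after the start, were found by symbol for 50 of the 76 genes. The windows are chr2:197788384-197788683 (minus strand) for Kcnc4, chr4:50742235-50742534 (plus) for Kcnd2, chr6:45693657-45693956 (minus) for Kcnf1 and chr3:114215086-114215385 (plus) for Kcna4. Capitals mark matches to GGGCGG (GC box), CAGATG (an E-box of the NeuroD type) or TATAAA on either strand.
Kcnc4: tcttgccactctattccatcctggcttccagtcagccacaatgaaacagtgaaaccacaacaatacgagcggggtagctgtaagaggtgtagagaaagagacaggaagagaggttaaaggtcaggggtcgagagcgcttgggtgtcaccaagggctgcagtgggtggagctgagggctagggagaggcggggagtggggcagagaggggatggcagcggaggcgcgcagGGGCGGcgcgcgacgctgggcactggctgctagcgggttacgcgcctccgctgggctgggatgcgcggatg
Kcnd2: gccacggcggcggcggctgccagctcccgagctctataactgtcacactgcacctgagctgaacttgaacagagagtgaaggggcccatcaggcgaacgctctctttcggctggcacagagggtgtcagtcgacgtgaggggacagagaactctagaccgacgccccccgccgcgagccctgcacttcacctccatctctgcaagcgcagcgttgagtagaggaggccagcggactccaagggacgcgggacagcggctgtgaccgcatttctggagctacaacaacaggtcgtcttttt
Kcnf1: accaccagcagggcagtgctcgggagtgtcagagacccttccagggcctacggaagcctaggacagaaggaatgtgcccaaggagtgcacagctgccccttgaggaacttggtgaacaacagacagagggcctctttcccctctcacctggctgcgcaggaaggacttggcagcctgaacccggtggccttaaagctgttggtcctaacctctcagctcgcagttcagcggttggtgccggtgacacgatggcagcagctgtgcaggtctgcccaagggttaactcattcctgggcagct
Kcna4: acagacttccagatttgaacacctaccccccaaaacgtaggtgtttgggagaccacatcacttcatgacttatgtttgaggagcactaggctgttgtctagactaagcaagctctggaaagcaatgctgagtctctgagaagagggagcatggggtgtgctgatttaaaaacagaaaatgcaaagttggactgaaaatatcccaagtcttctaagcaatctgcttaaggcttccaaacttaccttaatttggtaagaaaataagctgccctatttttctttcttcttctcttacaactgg
The windows of Kcnc4 and Kcnd2, both higher in CR, held 19 and 23 CpG dinucleotides, and those of Kcnf1 and Kcna4, both lower in CR, held 8 and 1. CpG was counted in these 4 windows only, so the values cannot stand for the other called genes. Only the Kcnc4 window held one of the motifs, a GC box. Among all 55 windows of channel genes 28 held a GC box (50.9%, against 33.1% of 33469 windows of all genes), 3 held CAGATG (5.45%, against 16.6%) and 2 held TATAAA (3.64%, against 14.2%). A GC box was in 9 of 12 windows of genes that were higher in CR and in 1 of 5 windows of genes that were lower. Entries were found for only 11 of the 13 higher and 5 of the 10 lower genes, and the difference was not tested. These matches describe letters in the windows and are not binding sites.

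The Kv4 (Shal) genes encode channels of the fast A-type current in dendrites. Both Kv4 genes found by the name rule, Kcnd2 and Kcnd3, were higher in CR. Kcnd2, the member with the highest level of all channel genes, was at 19.2, 23.6 and 24.2 FPKM in CR replicates 1 to 3 and at 9.77, 10.7 and 13 FPKM in control replicates 1 to 3. Every CR library lay above every control library, and CR was 2-fold higher (log2 fold change 0.94, SE 0.119, limma adjusted p = 0.00171). Kcnd3 was at 15.1, 16.5 and 15.6 FPKM in CR and at 12.3, 10.4 and 13.2 FPKM in control (0.37, SE 0.0872, adjusted p = 0.0150), and without CR replicate 2 its adjusted p was 0.0602. The summed FPKM of both genes was 38.1 ± 3.26 in CR and 23.1 ± 2.67 in control (SD, n = 3 each). Kcnd2 made up 58.5% ± 2.45 of that sum in CR and 48.2% ± 3.46 in control.

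The Kv3 (Shaw) genes encode channels that close quickly and serve fast-spiking neurons, such as those of the cerebellum, the auditory brainstem and cortical interneurons. Kcnc4 was at 2.25, 3.00 and 2.74 FPKM in CR and at 0.636, 0.676 and 0.952 FPKM in control, from 85 to 736 reads per library. The groups were far apart, with a fold of 3.53, the highest among tested channel genes (log2 fold change 1.06, SE 0.125, limma adjusted p = 0.00137). Kcnc1 was at 7.25, 8.44 and 8.36 FPKM in CR and at 4.68, 4.23 and 5.54 FPKM in control (0.64, SE 0.104, adjusted p = 0.00402). Kcnc2, at 2.03 ± 0.195 FPKM in CR and 1.65 ± 0.344 in control, did not pass (adjusted p = 0.254).

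The Kv1 (Shaker) genes, whose products assemble on axons and near nodes, moved in both directions. Kcna6 was at 9.45, 10.1 and 10.8 FPKM in CR and at 5.43, 6.09 and 6.83 FPKM in control. It rose 1.65-fold (log2 fold change 0.65, SE 0.0922, limma adjusted p = 0.00244). Kcna2, a main axonal subunit of the mature brain, was at 2.66, 3.21 and 3.00 FPKM in CR and at 2.17, 1.67 and 2.27 FPKM in control (0.39, adjusted p = 0.0348). That call was lost in 7 of 13 alternatives, with adjusted p up to 0.123 without CR replicate 2. Kcna4, an A-type member, was at 1.34, 1.42 and 1.37 FPKM in CR and at 1.97, 2.45 and 2.76 FPKM in control, and was lower in CR (-0.51, SE 0.114, adjusted p = 0.0127).

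Kcna3 was below control in each CR library (4.06, 5.54 and 4.92 FPKM in CR and 5.94, 6.66 and 6.18 in control) but did not pass (limma adjusted p = 0.0532). Kcna1, at 1.12 ± 0.140 FPKM in CR and 1.26 ± 0.113 in control, overlapped between groups (adjusted p = 0.545). Kcna5 was at 0.862 ± 0.183 and 0.506 ± 0.111 FPKM (adjusted p = 0.0964). Kcna6 thus made up 47.4% ± 2.20 of the Kv1 sum in CR and 32.8% ± 1.91 in control, and Kcna3 22.6% ± 1.86 and 33.7% ± 2.16. Some of these genes lie side by side on mRatBN7.2: Kcna5, Kcna1 and Kcna6 on chromosome 4 between 159350097 and 159576189, and Kcna3, Kcna2 and Kcna10 on chromosome 2 between 194632196 and 194798575, with Kcnc4 a further 273 kb on. In the first group Kcna6 was higher in CR while Kcna5 and Kcna1 did not pass. In the other Kcna2 and Kcnc4 were higher, Kcna3 did not pass and Kcna10 had no read.

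**Figure D2:**
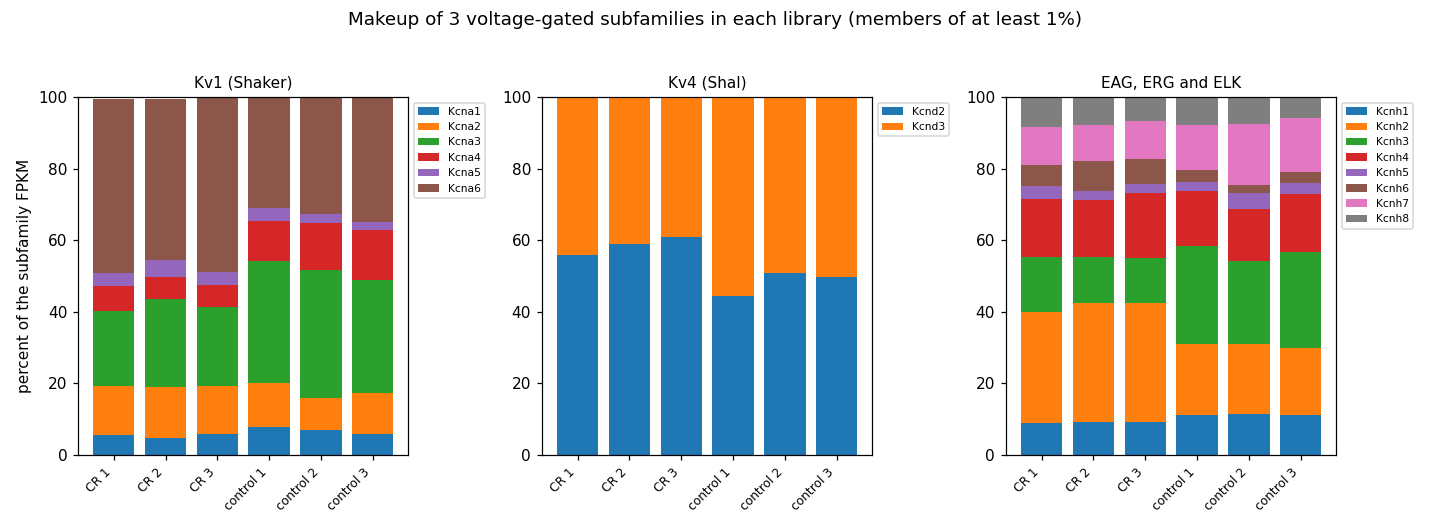
Percent of the summed FPKM of each of 3 voltage-gated subfamilies held by each member (members of at least 1%), in CR replicates 1 to 3 on the left and control replicates 1 to 3 on the right of each panel. Kcna6 takes 47.4% of the Kv1 sum in CR and 32.8% in control, Kcnd2 58.5% and 48.2% of the Kv4 sum, and Kcnh2 32.6% and 19.4% of the EAG, ERG and ELK sum.

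Of the 6 silent subunit genes tested, 3 passed, all of them lower in CR (50%, against 16.2% of all tested genes called lower). Kcng1 was at 3.25, 2.51 and 3.28 FPKM in CR and at 7.27, 6.28 and 7.38 FPKM in control, 2.32-fold lower in CR and the largest decrease among tested channel genes (log2 fold change -0.99, SE 0.108, limma adjusted p = 0.00108). Kcnv1 was at 1.71, 1.65 and 1.57 FPKM in CR and at 2.89, 3.02 and 3.01 FPKM in control (-0.59, SE 0.0869, adjusted p = 0.00280). Replicates of either group lay close together for Kcnv1, with SDs of 0.0737 and 0.0726 FPKM.

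Kcnf1, a further silent subunit gene, was at 3.24, 3.52 and 2.74 FPKM in CR and at 6.27, 4.77 and 4.69 FPKM in control (-0.58, SE 0.125, limma adjusted p = 0.0112). The silent subunit genes Kcns1 (0.929 ± 0.145 FPKM in CR and 0.494 ± 0.252 in control, adjusted p = 0.0867), Kcns2 (2.34 ± 0.350 and 1.91 ± 0.0498 FPKM, adjusted p = 0.202) and Kcng2 (1.56 ± 0.282 and 1.30 ± 0.405 FPKM, adjusted p = 0.455) did not pass. Over all 10 silent subunit genes the FPKM summed to 13.3 ± 0.286 in CR and 19.7 ± 1.25 in control. In the same libraries the dorsal telencephalic markers were 2.37-fold lower in CR, and a link between the 2 was not tested.

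The EAG, ERG and ELK genes, named after the ether-a-go-go channel of the fly, were split. Kcnh2, the ERG gene whose product carries the rapid repolarizing current of the heart, was at 5.39, 6.50 and 6.73 FPKM in CR and at 3.59, 3.37 and 3.50 FPKM in control (log2 fold change 0.68, SE 0.0949, limma adjusted p = 0.00230). Kcnh6, another ERG gene, was at 1.02, 1.66 and 1.40 FPKM in CR and at 0.579, 0.4 and 0.551 FPKM in control (0.64, SE 0.134, adjusted p = 0.0100). Both ERG genes were above control in each CR library, whereas Kcnh7, the remaining ERG gene, was below it in each (1.83, 1.92 and 2.16 FPKM in CR and 2.31, 2.93 and 2.82 in control) without passing (adjusted p = 0.0586). Kcnh3, an ELK gene of forebrain neurons, was lower, at 2.64, 2.49 and 2.58 FPKM in CR and 5.01, 4.03 and 4.98 FPKM in control (-0.66, SE 0.0990, adjusted p = 0.00284). Kcnh1, Kcnh4, Kcnh5 and Kcnh8 did not pass, with log2 fold changes between -0.15 and 0.16. The subfamily as a whole summed to 19.0 ± 1.55 FPKM in CR and 18.0 ± 0.735 in control.

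KCNQ genes encode subunits of the M-current, a slow current that restrains repeated firing. Kcnq5 was at 6.81, 6.46 and 8.09 FPKM in CR and at 9.17, 9.28 and 8.83 FPKM in control (log2 fold change -0.32, limma adjusted p = 0.0266). It was lower in CR, but the call was lost in 5 alternatives, with adjusted p up to 0.0945 without CR replicate 2. Kcnq3 was at 8.22 ± 0.673 FPKM in CR and 8.15 ± 0.416 in control (0.01, 95% interval -0.17 to 0.19, adjusted p = 0.949).

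**Figure D3:**
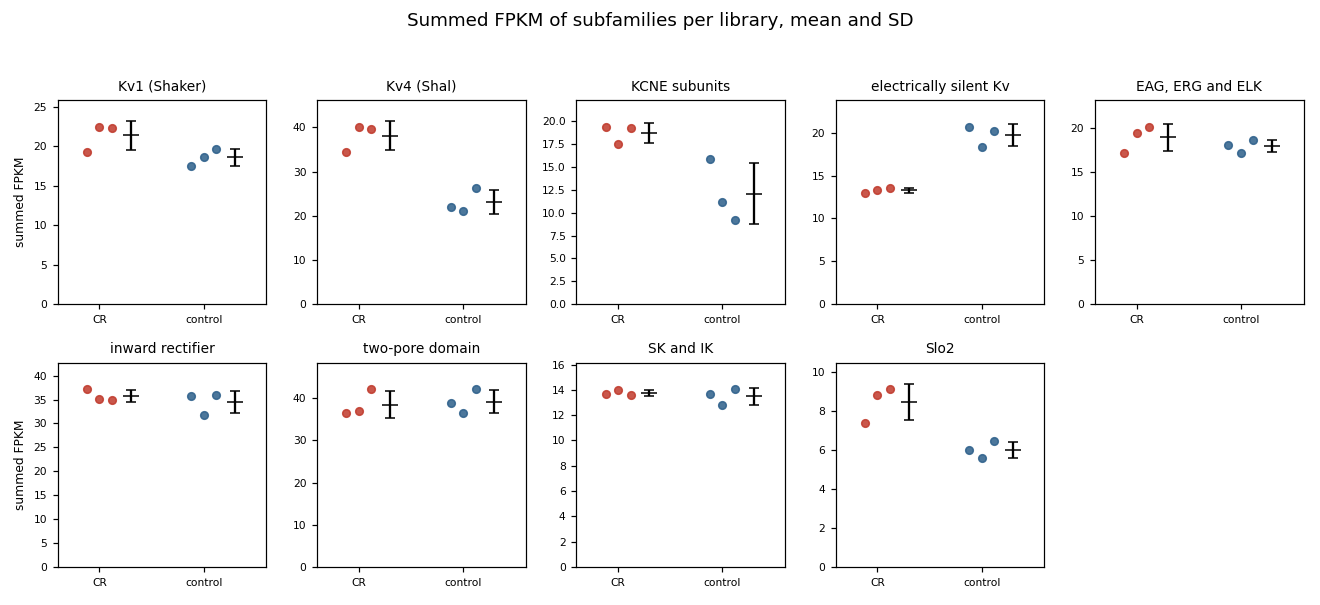
Summed FPKM of subfamilies in each library (points), with the mean and SD over 3 libraries beside them, CR on the left and control on the right of each panel. The Kv4 (38.1 in CR and 23.1 in control), Slo2 and KCNE sums lie above control in each CR library, and the sum of the silent Kv genes (13.3 and 19.7) lies below it.

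Of 11 tested inward rectifier genes, 3 passed (27.3%, against 33.9% of all tested genes). In CR, Kcnj6 was higher and Kcnj4 and Kcnj14 were lower. Kcnj6, a G-protein-gated (GIRK) subunit of midbrain dopamine neurons and many others, was at 3.24, 3.75 and 3.38 FPKM in CR and at 2.35, 2.01 and 2.81 FPKM in control (log2 fold change 0.40, limma adjusted p = 0.0297). Its call was lost in 7 of 13 alternatives (adjusted p up to 0.108). The other GIRK genes did not pass: Kcnj9 was above control in each CR library (3.64 ± 0.159 FPKM in CR and 2.90 ± 0.213 in control, adjusted p = 0.0609) and Kcnj3 below it (5 ± 0.203 and 6.15 ± 0.733 FPKM, adjusted p = 0.0747). Kcnj4, a strong rectifier of forebrain neurons, was at 0.815, 0.585 and 0.703 FPKM in CR and at 1.39, 1.23 and 1.43 FPKM in control (-0.47, SE 0.108, adjusted p = 0.0139), and passed as lower except without CR replicate 2 (adjusted p = 0.0576). Kcnj14 was at 3.53, 3.69 and 3.27 FPKM in CR and at 4.97, 4.39 and 6.40 FPKM in control (-0.47, adjusted p = 0.0245), a call lost without any 1 of the CR libraries (adjusted p up to 0.0853) and with no filter on low values (0.0577).

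Kcnj10, the main potassium-clearing channel of astrocytes, was at 2.42, 3.04 and 2.98 FPKM in CR and at 1.98, 2.07 and 2.58 FPKM in control. The groups overlapped and it did not pass (log2 fold change 0.25, 95% interval -0.02 to 0.52, limma adjusted p = 0.134). Kcnj16, its partner in astrocytes and in brainstem cells that sense pH, had a mean under 0.5 FPKM and stood outside the main test. It was at 0.708, 0.817 and 1.01 FPKM in CR (168, 225 and 278 reads) and at 0.127, 0.0369 and 0.112 FPKM in control (19, 10 and 22 reads), 9.23-fold higher in CR. With no filter on low values it passed (log2 fold change 0.76, SE 0.0782, adjusted p = 0.00409). Kcnj2 lies 39.1 kb from Kcnj16 on chromosome 10 and was at 2.43 ± 0.684 FPKM in CR and 3.64 ± 0.422 in control, without passing (adjusted p = 0.0537).

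Kcnj8, the pore subunit of the ATP-sensitive channel of pericytes, was at 4.29, 2.68 and 3.86 FPKM in CR and at 2.60, 2.34 and 2.21 FPKM in control (log2 fold change 0.43, limma adjusted p = 0.0536). Markers of pericytes and smooth muscle summed to between 53.8 and 71.8 FPKM in CR and between 44.6 and 55.4 in control. In each CR library 5 of 8 were above control, against 26.1% of all tested genes. Kcnj11, the pore subunit of the same kind of channel in neurons, was at 3.10 ± 0.181 FPKM in CR and 3.04 ± 0.250 in control (95% interval -0.19 to 0.23, adjusted p = 0.873). Kcnj12 was at 1.52 ± 0.188 and 1.13 ± 0.133 FPKM (adjusted p = 0.130). Kcnj13 and the subunit gene Kcne2, both expressed in choroid plexus, were high in control replicate 1 (5.67 and 8.37 FPKM) and lower in control replicates 2 and 3 (2.89 and 2.98 FPKM for Kcnj13, 4.97 and 2.89 FPKM for Kcne2). In CR Kcnj13 was at 5.78, 4.61 and 4.21 FPKM and Kcne2 at 7.19, 7.48 and 6.91 FPKM, and neither passed (adjusted p = 0.293 and 0.245) unless control replicate 1 was left out (0.0226 and 0.0218). Choroid plexus markers summed to 2198 to 2779 FPKM in CR and to 2786, 1658 and 1168 FPKM in control replicates 1 to 3, so control replicate 1 was the highest control library for the markers and for both genes. In the annotation 21.3% of the Kcnj13 exon length overlaps Gigyf2 on the other strand and 13.8% of that of Kcne2 overlaps another gene on its own strand, so their reads may be shared.

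Of 8 tested K2P genes, Kcnk9 was higher and Kcnk10 lower in CR, and the remaining 6 did not pass. The share that passed was 25%, against 33.9% of all tested genes. Kcnk9, an acid-sensitive (TASK) leak channel gene that is imprinted in mouse, was at 5.34, 5.82 and 7.63 FPKM in CR and at 2.90, 2.55 and 2.98 FPKM in control. It was 2.23-fold higher in CR, and CR replicate 3 was the highest library (log2 fold change 0.92, SE 0.127, limma adjusted p = 0.00220). Kcnk3, the other TASK gene tested, was at 2.53, 2.69 and 3.69 FPKM in CR and at 2.42, 1.47 and 2.03 FPKM in control (0.42, adjusted p = 0.0783). Kcnk10, a TREK leak channel gene, was at 6.58, 6.11 and 6.61 FPKM in CR and at 8.67, 8.30 and 9.34 FPKM in control (-0.39, SE 0.0725, adjusted p = 0.00607).

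Kcnk2, another TREK gene and the K2P gene with the highest level, was at 12.2 ± 1.27 FPKM in CR and 14.0 ± 1.06 in control (limma adjusted p = 0.147). Kcnk4, the third of that group, was at 0.708, 1.48 and 0.735 FPKM in CR and at 0.379, 0.409 and 0.447 FPKM in control (adjusted p = 0.0627). Kcnk1 (6.51 ± 0.729 FPKM in CR and 7.65 ± 0.868 in control), Kcnk12 and Kcnk13 did not pass either. Over the 14 K2P genes the sum was 38.5 ± 3.15 FPKM in CR and 39.2 ± 2.81 in control.

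Of 5 tested genes for channels opened by calcium or sodium, 1 passed (20%, against 33.9% of all tested genes). Kcnt1, whose product is a sodium-activated channel, was at 4.38, 6.02 and 6.38 FPKM in CR and at 2.93, 2.78 and 3.74 FPKM in control (log2 fold change 0.66, SE 0.146, limma adjusted p = 0.0119), with a call lost without CR replicate 2 (adjusted p = 0.0501). Its relative Kcnt2 was at 2.87 ± 0.135 FPKM in CR and 2.87 ± 0.184 in control (95% interval -0.20 to 0.20). The SK genes, whose small-conductance channels produce the pause after spikes, did not pass: Kcnn1 was at 5.58 ± 0.469 FPKM in CR and 6.46 ± 0.457 in control (adjusted p = 0.139), Kcnn2 at 4.57 ± 0.493 and 4.11 ± 0.505 FPKM (0.401) and Kcnn3 at 3.13 ± 0.104 and 2.64 ± 0.720 FPKM (0.320).

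The KCNE genes encode small single-pass subunits that modify Kv channels. Kcne5, on the X chromosome, was at 11.1, 9.08 and 11.5 FPKM in CR and at 6.94, 5.89 and 5.99 FPKM in control (log2 fold change 0.67, SE 0.103, limma adjusted p = 0.00325). Kcne4 was at 1.10, 0.958 and 0.858 FPKM in CR and at 0.539, 0.376 and 0.339 FPKM in control (0.48, SE 0.115, adjusted p = 0.0170), from 19 to 75 reads per library, and did not pass without CR replicate 1 or without CR replicate 2. Both genes were above control in each CR library.

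**Figure D4:**
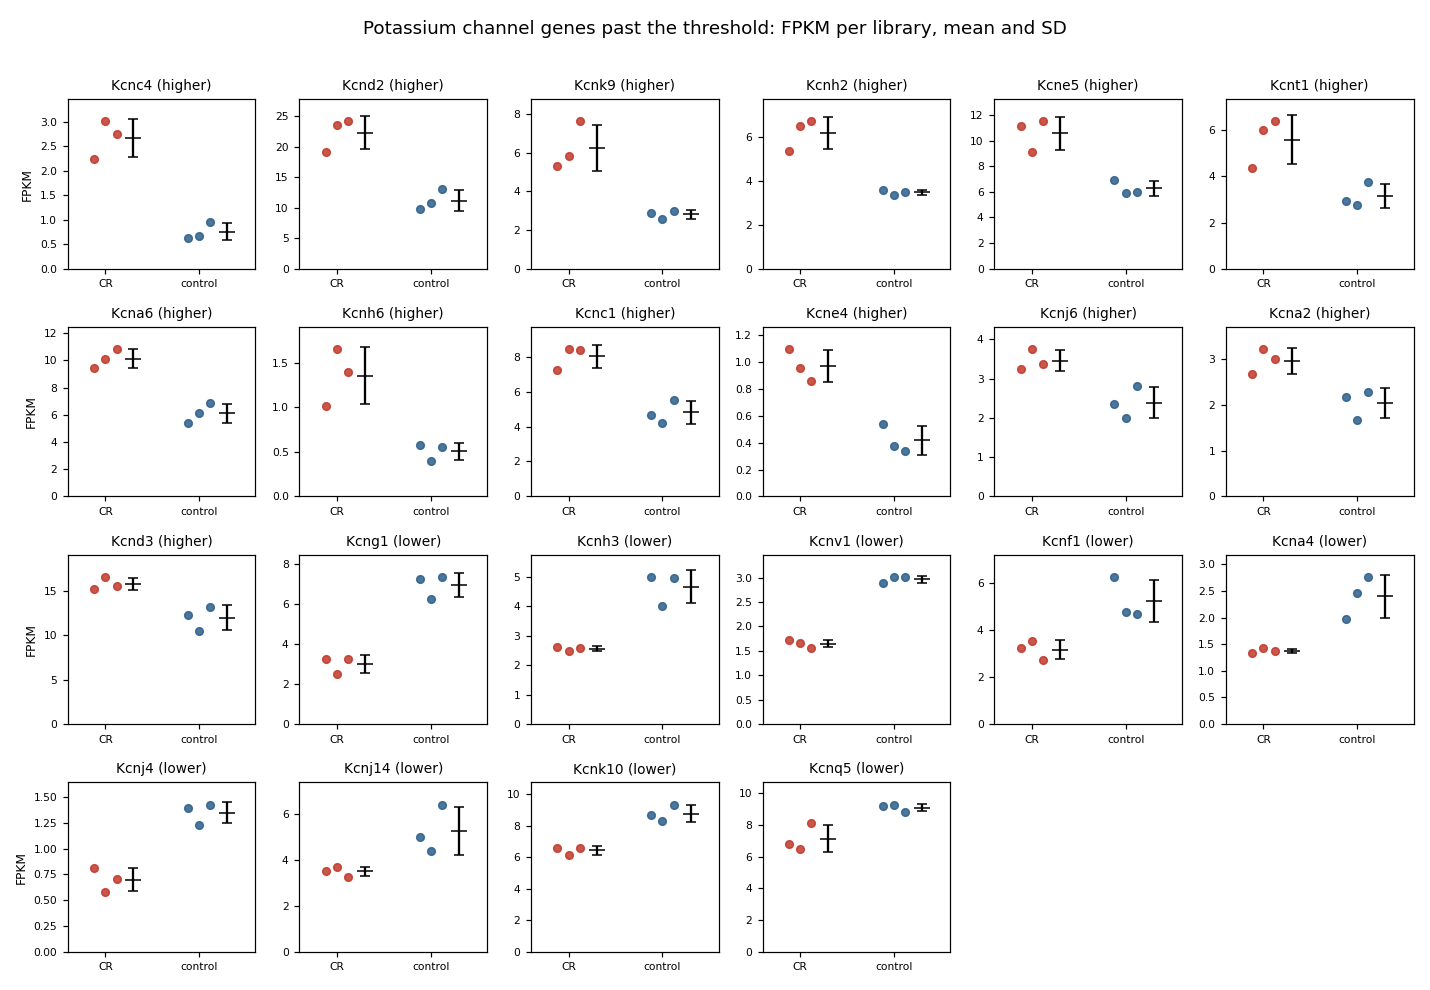
FPKM of 22 of the 23 channel genes past the threshold in each library (points), with mean and SD over 3 libraries, CR on the left and control on the right of each panel. The genes are drawn because they passed the test on these same libraries. In all 22 the 3 CR libraries lie on one side of the 3 control libraries, as in 50.3% of all tested genes.

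The remaining 19 genes were under the filter. Kcna10 and Kcnk18 had no read in any library, and Kcne1 and Kcnj1 had at most 2. Besides Kcnj16, the GIRK gene Kcnj5 was above control in each CR library (0.313, 0.290 and 0.220 FPKM in CR and 0.128, 0.0913 and 0.0697 in control), and it too passed with no filter on low values (log2 fold change 0.22, SE 0.0445, limma adjusted p = 0.0221), from 5 to 29 reads per library. Also above control in each CR library were Kcna7 and Kcnk15 at under 0.2 FPKM, and the silent subunit gene Kcng3 was below it (0.230, 0.287 and 0.199 FPKM in CR and 0.323, 0.537 and 0.431 in control). The other members, Kcng4, Kcnk5, Kcnk6, Kcnk7, Kcnk16, Kcnn4, Kcnq1, Kcns3, Kcnu1 and Kcnv2, overlapped between the groups.

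Genes that work with these channels were then read out of the same fit. Among associated subunits, 11 of 17 tested passed (64.7%, against 33.9% of all tested genes), 8 as higher and 3 as lower. Their median log2 fold change was 0.14, against 0.01 for all tested genes. Of the partners of Kv4 channels, Dpp6 was at 43.9 ± 3.53 FPKM in CR and 23.2 ± 1.58 in control (0.89, limma adjusted p = 0.000525) and Kcnip1 at 25.6 ± 1.63 and 11.2 ± 1.12 FPKM (1.13, adjusted p = 0.000365). Kcnip2, also a Kv4 partner, was lower, at 10.3 ± 1.09 FPKM in CR and 14.5 ± 0.752 in control (-0.46, adjusted p = 0.00584). Kcnab2, a cytoplasmic Kv1 partner, was higher at 8.28 ± 0.626 and 4.77 ± 0.330 FPKM (0.69, adjusted p = 0.00153). Of the large-conductance calcium-activated channel, the partners Kcnmb4 (19.1 ± 0.455 FPKM in CR and 25.8 ± 2.66 in control, adjusted p = 0.00558) and Lrrc55 (9.57 ± 0.690 and 11.9 ± 0.684 FPKM, adjusted p = 0.0217) were lower. Kcnma1, the pore gene of that channel and counted in the same list, was higher at 5.03 ± 0.303 FPKM in CR and 3.94 ± 0.187 in control (0.29, limma adjusted p = 0.0291).

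Of 14 genes that build or clear potassium gradients, 12 were higher (85.7%, against 17.7% of all tested genes) and 2 did not pass. Their median log2 fold change was 0.56, against 0.01 for all tested genes. The sodium-potassium pump regulator Fxyd7 was at 78.0 ± 12.2 FPKM in CR and 21.7 ± 6.64 in control (1.82, limma adjusted p = 0.00108), and the potassium-chloride cotransporter Slc12a5 at 33.2 ± 3.48 and 12.7 ± 3.80 FPKM (1.35, adjusted p = 0.00203). Aqp4, the astrocyte water channel found beside Kcnj10 on endfeet, was at 14.7 ± 1.74 FPKM in CR and 5.92 ± 1.62 in control (1.21, adjusted p = 0.00237). Aqp4 and Gja1 are also on the astrocyte marker list. Among 12 partners that hold channels in place on axons and at synapses, 2 were higher, 2 lower and 8 not past the threshold. The share that passed was 33.3%, near the 33.9% of all tested genes. Cntnap2, which clusters Kv1 channels beside nodes, was at 15.7 ± 1.6 FPKM in CR and 11 ± 0.809 in control (0.48, adjusted p = 0.00611), and its partner Cntn2 was at 17.4 ± 2.49 and 27.3 ± 2.01 FPKM (-0.62, adjusted p = 0.00455). Cntnap1, a protein of the axonal membrane beside nodes, was higher at 3.10 ± 0.706 FPKM in CR and 1.48 ± 0.490 in control (0.73, adjusted p = 0.0195), and the synaptic scaffold gene Dlg2 lower at 8.53 ± 0.539 and 13.3 ± 0.292 FPKM (-0.59, adjusted p = 0.00113).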

How the data were processed

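The authors deposited 1 table of FPKM values for each library, with the exon length of every Ensembl gene. The submitters' processing notes name STAR 2.7.10a, featureCounts 2.0.1, cutadapt 1.16, Trimmomatic 0.36 and Trim Galore 0.4.4, and the build mRatBN7.2; their roles, settings and the strand setting of the counting are not given in the sources used here. FPKM times exon length was a whole multiple (within 0.05) of 1 step for 100% of values, so assigned reads could be worked out. At 1 kb of exon length, 3 reads were worth 0.117 to 0.214 FPKM, a floor for counting error only. Replicates differed by more than counting noise (mean chi-square per gene 6.63 to 15.6).

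Genes averaging 0.5 FPKM or more were tested with limma 3.58.1 in R 4.3.3 on log2(FPKM + 1), with a trend, two-sided, Benjamini-Hochberg adjusted over 15247 genes; this scale understates changes of low genes. Folds are ratios of mean FPKM. Alternatives were a pseudocount of 0.1, no filter on low values, a higher filter at 2 FPKM, scaling by median-ratio size factors, limma-voom on the reads, no trend, the replicate number as a block, and leaving out each library. The members, gene lists and marker lists were chosen with earlier results of these data known. Genes named were up to 12 higher and 12 lower channel genes by log2 fold change, a set list of members, the highest of each class and up to 3 higher and 3 lower genes of each partner list. Other members were added to account for all, and Kcnma1 was added beside the partners of its channel. The promoter motifs were chosen after the results were seen. Some members that entered the fit and the counts are not reported here by name or drawn.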

Additional observations from a re-analysis of the deposited data

How the results depend on the processing

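Of the 23 channel genes past the threshold, 14 passed with the same sign in each of the 12 or 13 alternatives that tested them, 9 lost the call in at least 1 and none changed sign; of the 34 that did not pass, 11 passed in at least 1, 8 of them with limma-voom on the reads. Higher channel genes numbered 9 to 16 and lower ones 7 to 11 when 1 library was left out, against 13 and 10. Calls over all genes numbered 3210 without CR replicate 2, 3308 without CR replicate 3 and up to 5042 without any other single library, against 5173. Higher associated subunits numbered 5 to 8 without 1 library, against 8, and higher axonal partners 1 to 3, against 2, and 1 with no filter on low values. With the replicate number as a block 11 channel genes were higher and 11 lower; Kcna2, Kcnj6 and Kcnq5 lost their calls, and Kcna3 and Kcnj2 passed. Deviations of same-numbered libraries correlated at 0.0198 to 0.0454, and those of differently numbered ones at -0.0428 to 0.0165. With 3 libraries in each group, such small values cannot settle whether the numbers pair the libraries. Median-ratio scaling moved the share of calls that were higher to 47.1% from 52.3%. The cause of these changes was not tested. Depth limits the genes under the filter, which had at most 36 reads per library apart from Kcnj16.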
